A study of Sus scrofa with 36 samples.

Results

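The 10 genes described here belong to the collagen matrix of the liver and to the cells that lay it down: the collagen chains COL1A1, COL1A2, COL3A1, COL4A1, COL5A1 and COL6A1, the small proteoglycans DCN and LUM, the contractile actin ACTA2 and the protease inhibitor TIMP1. They are 10 of 11224 genes that could be named among the kept probes of a pig array. Their probes were taken by the gene name, RefSeq record or description given for each probe, which yielded 58 probes of 60 bases. A probe was kept if no fewer than 6 of the 36 arrays had it marked well above background by the scanner software, and 55 of the 58 were kept, against 44796 of 60305 probes on the whole array. The 3 left out were 1 each for COL1A1, COL5A1 and DCN, well above background on 0, 2 and 0 arrays. No difference between groups entered the choice of the probes.

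The livers came from 36 castrated male pigs, 12 each of Large White (LW), Creole (CR) and their cross (F1). In each breed 6 pigs were slaughtered in thermoneutral conditions (TN, labelled 24 °C) and 6 after 4 or 5 days of heat (HS). The labels give 30 °C for the HS pigs while the protocol text gives 32 °C. The HS pigs were slaughtered after the TN pigs, so temperature and day of slaughter cannot be told apart. According to the study's methods the pigs of a breed came from few litters, each spread over both temperatures, and the labels name no litter or pen. Pigs therefore entered the tests as independent, and the part of litter in the breed differences was not tested. RNA of powdered liver tissue was hybridised with 1 dye, 1 pig to an array, on 5 slides that each held all 3 breeds and as many TN as HS pigs. Slide 1 held only LW TN replicates 1 and 2, CR HS replicate 1 and F1 HS replicate 1. Breed and temperature therefore cannot be told apart on slide 1. Differences within slides are of plain means, adjusted for neither breed nor temperature. In such bulk samples, fewer cells of a type and less RNA per cell cannot be told apart.

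Fibrillar collagens are ropes of chains wound around each other, in which a glycine recurs at each turn of a short repeat. COL1A1 and COL1A2 encode the chains of type I collagen, COL3A1 the chain of type III, and COL5A1 a chain of type V, which lies inside type I fibrils. COL4A1 encodes a chain of the network in basement membranes and COL6A1 a chain of the beaded filaments around cells. DCN (decorin) and LUM (lumican) bind collagen fibrils and set their spacing. In the liver these genes are known mainly from hepatic stellate cells and portal fibroblasts. Stellate cells that become activated, as in fibrosis, take on a contractile form marked by ACTA2, and secrete collagen together with TIMP1, an inhibitor of the metalloproteinases that degrade matrix.

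The arrays were alike in brightness, with a median signal of 70.0 to 92.0 over a background of 18.0 to 25.0, no saturated spot, and 39644 to 44025 spots well above background. In a principal component analysis of the kept probes the first component held 18.6% of the variance and followed breed, and along it 5 arrays lay away from the others of their breed: LW TN replicates 1 and 6, F1 TN replicate 3, and F1 HS replicates 1 and 2. Breed differences are given with and without these arrays, which were picked on the same signals that the breed comparison uses. The tissue label was checked against marker genes. Of 17 hepatocyte markers 14 were measured, with a mean level between 17.22 and 17.44 on the log2 scale on every array, and of 20 stellate cell markers 18 were measured, with group means of 9.26 to 9.49.

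The kept probe with the highest mean signal stood for its gene, and the other kept probes are reported beside it, because the probes of a gene did not always vary together. Levels are log2 of the quantile-normalised signal, and a level is compared only between animals at the same probe. The probe sequences on which the results turn are printed 5′ to 3′ as the array files give them. For COL1A1 (chromosome 12, 26379087 to 26397180, Sscrofa11.1, from RefSeq) the brightest probe and the next share 34 bases, in capitals, and so read the same piece of message. The last sequence is shown because it is the COL1A1 probe that passed a test, the others having not.
COL1A1 O7301: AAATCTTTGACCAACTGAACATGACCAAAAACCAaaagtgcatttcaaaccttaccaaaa
COL1A1 A_72_P105886: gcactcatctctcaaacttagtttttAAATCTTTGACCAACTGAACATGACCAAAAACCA
COL1A1 A_72_P198052: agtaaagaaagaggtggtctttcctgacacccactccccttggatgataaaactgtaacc

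For COL1A2 (chromosome 9, 74174484 to 74210407) the brightest probe is printed first, since it carried a breed difference. The next covers the collagen helix: glycine codons begin with GG and recur there every 9 bases, and those GG pairs are in capitals. The last holds the same spacing only as CC, in capitals, so it reads as the opposite strand of a helix.
COL1A2 A_72_P107881: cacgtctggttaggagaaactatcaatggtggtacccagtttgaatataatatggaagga
COL1A2 O14679: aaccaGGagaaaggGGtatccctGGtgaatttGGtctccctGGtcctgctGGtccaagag
COL1A2 A_72_P053171: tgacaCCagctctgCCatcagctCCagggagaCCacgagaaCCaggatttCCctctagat

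A run of at least 5 GG pairs at steps of 9 bases, searched on the printed strand and on its complement, was held by 3 of the 58 member probes, against 17 of 60305 probes on the array (0.0282%). The other holders were a COL4A1 probe with 6 pairs and a COL6A1 probe with 7, printed here for comparison with the pairs in capitals. On the complement the run was held by the COL1A2 probe above, out of 8 probes on the array (0.0133%).
COL4A1 O6313: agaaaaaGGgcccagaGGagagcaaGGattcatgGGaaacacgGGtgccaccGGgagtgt
COL6A1 A_72_P065906: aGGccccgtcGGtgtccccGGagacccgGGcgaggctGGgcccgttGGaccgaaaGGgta

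For DCN (chromosome 5, 91678601 to 91713925) 4 of 6 probes passed the breed test. Of these, 2 are near copies that share 54 bases, in capitals, and the last printed sequence lies elsewhere in the message.
DCN A_72_P178111: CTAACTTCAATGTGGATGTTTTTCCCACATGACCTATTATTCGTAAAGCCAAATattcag
DCN A_72_P180841: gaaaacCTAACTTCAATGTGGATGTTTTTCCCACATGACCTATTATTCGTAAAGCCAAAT
DCN A_72_P569714: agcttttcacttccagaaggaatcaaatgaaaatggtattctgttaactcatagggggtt

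LUM lies beside DCN (chromosome 5, 91748871 to 91756381). Its brightest probe holds a run of alternating T and G. A stretch of 23 bases that this probe shares with the opposite strand of another, unnamed probe is in capitals; in all 3 probes share 20 to 23 such bases on the opposite strand and 1 shares 20 on the same strand. The next LUM probe passed both breed tests, and its capitals mark 55 bases shared with another LUM probe.
LUM A_72_P065926: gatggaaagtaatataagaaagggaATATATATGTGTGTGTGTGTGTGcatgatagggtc
LUM A_72_P665036: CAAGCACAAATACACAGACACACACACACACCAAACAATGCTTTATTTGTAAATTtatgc

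The remaining genes were located as follows. COL3A1 lies on chromosome 15 from 93556914 to 93595678, COL4A1 on chromosome 11 from 76858332 to 76997409 and COL5A1 on chromosome 1 from 273934219 to 274083264. ACTA2 lies on chromosome 14 from 100868145 to 100886732, and TIMP1 on chromosome X from 42103251 to 42106289. The brightest ACTA2 probe is printed with 26 bases in capitals that it shares with a probe for ACTA1, the skeletal muscle actin, and how far ACTA1 message adds to its signal was not tested. The brightest COL5A1 probe and a dimmer one of the same gene are printed because they did not vary together.
ACTA2 O9213: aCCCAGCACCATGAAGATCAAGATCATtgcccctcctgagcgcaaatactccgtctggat
COL5A1 A_72_P356008: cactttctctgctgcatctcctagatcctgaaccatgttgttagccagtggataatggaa
COL5A1 A_72_P077826: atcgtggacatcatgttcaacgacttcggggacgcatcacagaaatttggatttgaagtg

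The comparison of HS with TN pigs asks whether 4 or 5 days of heat moved the matrix genes of the liver. None of the 55 probes passed (limma, Benjamini-Hochberg adjusted p under 0.05 over all 44796 kept probes), where 0.857% of all kept probes did. An unadjusted p under 0.05 was found at 7 probes (12.7%), about the share among all kept probes (13.1%). The median difference over the 55 probes was -0.02 on the log2 scale, against 0.00 over all kept probes.

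COL1A1 lay between 11.46 and 12.75 in LW TN pigs (median 12.16) and between 11.11 and 12.45 in LW HS pigs (median 12.19). In CR it ranged from 11.41 to 12.26 at TN (median 12.14) and from 10.56 to 12.55 at HS (median 11.68). In F1 it ranged from 11.15 to 12.14 at TN (median 11.52) and from 11.04 to 12.74 at HS (median 11.94). The temperatures overlapped in every breed. Over breeds the difference HS minus TN was -0.07 (95% interval -0.41 to 0.26, n = 18 and 18, limma adjusted p = 0.909), and 11 of 18 HS pigs stood above the TN mean of their breed.

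COL3A1 behaved alike. Its levels ran from 11.93 to 12.51 in LW TN (median 12.34), 11.69 to 12.55 in LW HS (12.35), 11.91 to 12.43 in CR TN (12.21), 11.19 to 12.32 in CR HS (12), 11.56 to 12.40 in F1 TN (11.81) and 11.59 to 12.68 in F1 HS (12.07). Again no breed had its temperatures apart. The difference was -0.03 (95% interval -0.25 to 0.19, limma adjusted p = 0.956).

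COL4A1, of the basement membrane, had the most negative heat difference of the 10 genes, and it did not pass. The difference at its brightest probe was -0.22 (95% interval -0.42 to -0.01, limma adjusted p = 0.343), and 5 of 18 HS pigs lay above the TN mean of their breed. At 6 of its 7 probes the difference lay between -0.26 and -0.22 with unadjusted p under 0.05 and adjusted p of 0.276 to 0.343. Those probes include a pair of identical sequence and a pair sharing 54 bases, so they are not separate measurements of the gene. Within slides the brightest probe was lower at HS on 4 of 5 slides, with differences of -0.48 to 0.05 that were not adjusted for breed.

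ACTA2, the actin of activated stellate cells and smooth muscle, went the other way at its brightest probe. Levels ran from 12.67 to 12.98 in LW TN (median 12.95), 12.70 to 13.42 in LW HS (13.11), 12.59 to 13.25 in CR TN (12.71), 12.71 to 13.40 in CR HS (12.95), 12.47 to 13.27 in F1 TN (12.61) and 12.37 to 13.54 in F1 HS (13.00). The HS median was above the TN median in each breed, and the ranges overlapped. The difference was 0.23 (SE 0.087, 95% interval 0.05 to 0.41) with a limma adjusted p of 0.201, so it did not pass, and 15 of 18 HS pigs lay above the TN mean of their breed. On all 5 slides the plain mean of HS pigs was above that of TN pigs, by 0.03 to 0.50. On slide 1 the TN pigs were all LW and the HS pigs CR and F1. The other 7 ACTA2 probes lay between -0.01 and 0.17, none with an unadjusted p under 0.05. ACTA1, with which the probe shares 26 bases, had a difference of 0.24 at its own brightest probe (adjusted p = 0.155).

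For the other members the interval of the heat difference was -0.36 to 0.23 for COL1A2, -0.27 to 0.22 for COL5A1, -0.32 to 0.15 for COL6A1, -0.18 to 0.33 for DCN, -0.02 to 0.24 for LUM and -0.18 to 0.10 for TIMP1. All of these include 0, and a p that misses the threshold does not show that the gene was unmoved.

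**Figure D1:**
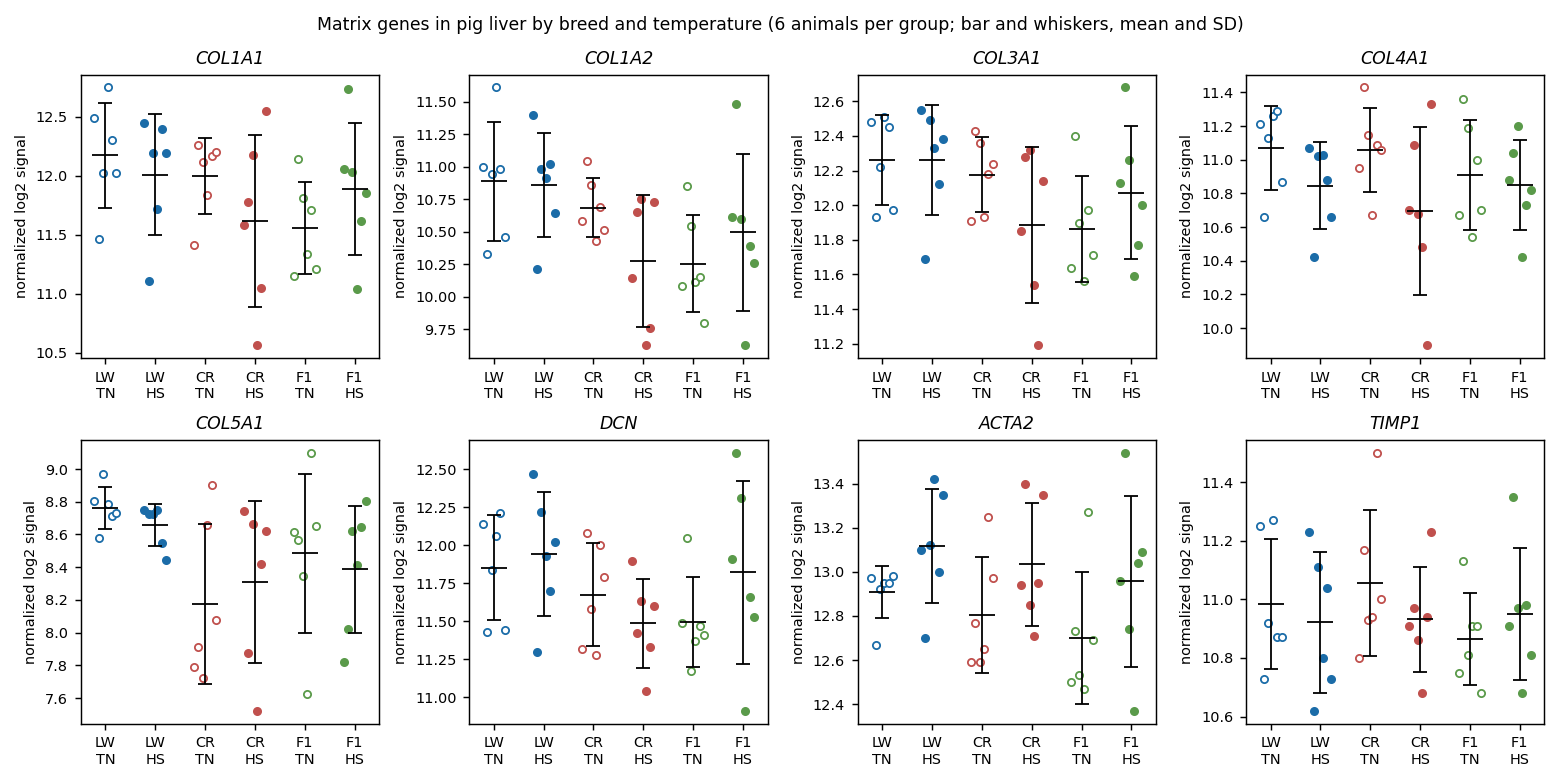
Log2 quantile-normalised signal (y axis) of 8 of the genes at the brightest probe in each of 36 pigs, by breed and temperature (x axis); open circles are TN pigs, filled circles HS pigs, and bars give the mean and SD of 6 pigs. The HS and TN pigs of a breed overlap in each panel, and for COL5A1 the LW pigs lie between 8.44 and 8.97 while CR pigs spread from 7.52 to 8.90.

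Whether heat acted differently by breed was asked with the interaction of breed and temperature. No probe passed among the 55 (smallest limma adjusted p = 0.995), as among all kept probes (0%), and none had an unadjusted p under 0.05, against 3.74% of all kept probes. In the fit by group, the difference HS minus TN for COL1A2 was -0.41 among CR pigs, -0.03 among LW pigs and 0.24 among F1 pigs (SE 0.244 each). In the same order COL1A1 gave -0.38, -0.16 and 0.33, COL3A1 -0.28, 0.00 and 0.21, and DCN -0.19, 0.08 and 0.33. The type I and type III chains and DCN were thus lower at HS in CR and higher at HS in F1 in these pigs, at sizes within the spread between pigs. For ACTA2 the values were 0.23, 0.21 and 0.26. Without slide 3, 18 of the 55 probes had an unadjusted interaction p under 0.05, against 3.94% of all kept probes, and still none passed.

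The breed comparison gave more. Between CR and LW, 11 of 55 probes passed (20%), 9 lower and 2 higher in CR, where 26.5% of all kept probes passed, 12.9% lower and 13.6% higher. The share is below that of the array as a whole, while 43 of the 55 differences were below 0. Many of these probes overlap in sequence or varied together between pigs, so the signs are not separate results. No share of all kept probes below 0 is set beside that count. The median difference was -0.18 over the members and 0.00 over all kept probes. With the scanner's processed signal scaled to the 75th percentile the split was 8 lower and 4 higher.

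DCN was lower in CR at 4 of 6 probes, by 0.38 to 0.54 on the log2 scale. At the probe A_72_P178111 the LW pigs ran from 10.03 to 10.94 (median 10.50), the CR pigs from 9.39 to 10.49 (median 10.04) and the F1 pigs from 9.30 to 11.19 (median 9.94). The breeds overlapped, but 11 of 12 CR pigs lay below the LW mean, and the difference was -0.50 (SE 0.155, limma adjusted p = 0.0146). At A_72_P569714, elsewhere in the message, LW ran from 7.37 to 8.35 (median 7.74) and CR from 6.87 to 7.89 (median 7.25), a difference of -0.54 (SE 0.15, adjusted p = 0.00692). This probe was lower in CR on all 5 slides, by 0.12 to 0.84. Without slide 3 no DCN probe passed, and without slide 4 only 1 of the 6 did. At the brightest DCN probe the difference was -0.32 (SE 0.155, adjusted p = 0.131) and did not pass, although it was below 0 like those of the other probes.

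COL5A1 was lower in CR at its brightest probe. LW pigs stayed within 8.44 to 8.97 (median 8.73), CR pigs spread from 7.52 to 8.90 (median 8.25) and F1 pigs from 7.63 to 9.10 (median 8.59). The SD over 12 pigs was 0.474 for CR and 0.423 for F1, against 0.136 for LW. The difference CR minus LW was -0.47 (SE 0.149, limma adjusted p = 0.0177), with 10 of 12 CR pigs below the LW mean and CR below LW on 4 of 5 slides. It passed in each of the 36 refits that left out 1 array, but not without slide 2 (-0.31, adjusted p = 0.206) or slide 3 (-0.49, adjusted p = 0.0747). None of the other 3 COL5A1 probes passed, and they differed in sign. A_72_P495841 differed by -0.05, with 8 of 12 CR pigs below the LW mean. A_72_P077826 had a mean of 6.87 ± 0.249 in CR and 6.74 ± 0.248 in LW (SD, n = 12 each). A_72_P444639 differed by 0.25 (limma adjusted p = 0.0569), and it passed as higher in CR with the processed signal and in the authors' normalised table. With the mean of the 4 probes in place of the brightest the difference was -0.03 (adjusted p = 0.714).

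COL4A1 was lower in CR at 2 of 7 probes, which share 54 bases. At A_72_P316078 the LW pigs ran from 8.28 to 9.26 (median 8.83) and the CR pigs from 7.71 to 9.15 (median 8.45), a difference of -0.38 (SE 0.122, limma adjusted p = 0.0181) found with the same sign on all 5 slides. No COL4A1 probe passed without slide 3 or without slide 4. The mean of the 7 probes differed by -0.21 and did not pass. At the brightest COL4A1 probe the difference was -0.08 (95% interval -0.33 to 0.17). LUM had 2 probes lower in CR, by 0.50 and 0.38, well above background on 35 and 25 arrays, and 1 probe higher. The calls at the lower probes were lost in 17 and 16 of the 36 refits without 1 array. No LUM probe was called lower with the processed signal (2 higher), with no filter on dim probes, or without slide 3. More were called lower with array weights (5), without the 5 arrays away from their breed (6) and without slide 4 (4). The higher probe, A_72_P665036, ran from 6.38 to 6.94 in LW (median 6.63) and from 6.65 to 7.13 in CR (median 6.84), and all 12 CR pigs lay above the LW mean (0.18, SE 0.060, adjusted p = 0.0219). The brightest LUM probe differed by 0.02 (95% interval -0.13 to 0.18).

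The type I chains did not pass between CR and LW at the brightest probe: COL1A2 differed by -0.39 (SE 0.176, limma adjusted p = 0.0944), with 11 of 12 CR pigs below the LW mean, and COL1A1 by -0.28 (SE 0.202, adjusted p = 0.319). The COL1A1 probe A_72_P198052 was higher in CR (0.18, SE 0.069, adjusted p = 0.0479). Its call was lost in 19 of the 36 refits without 1 array, and also with no filter on dim probes, with slide or array row as a block, with trended robust variance and without any 1 of the 5 slides. COL3A1 differed by -0.23 (95% interval -0.50 to 0.04), ACTA2 by -0.10 (-0.31 to 0.12), COL6A1 by 0.01 (-0.28 to 0.30) and TIMP1 by 0.04 (-0.13 to 0.22). Unlike its brightest probe, 3 of the 4 TIMP1 probes lay below 0, and the median over the 4 was -0.21. None of them passed (smallest limma adjusted p = 0.0700). Those 3 probes overlap in sequence by 56 or 60 bases, so they are not separate measurements.

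Between F1 and LW, 4 of 55 probes passed (7.27%), 3 lower and 1 higher in F1, where 18.4% of all kept probes passed, 9.23% lower and 9.13% higher. The differences were below 0 at 46 of 55 probes, with a median of -0.20 against 0.00 over all kept probes. Here too the probes are not separate measurements. With the processed signal 6 probes passed, 3 in each direction.

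COL1A2 was the member that fell at its brightest probe. LW pigs ran from 10.21 to 11.61 (median 10.96) and F1 pigs from 9.63 to 11.48 (median 10.32). The F1 pig at the top of its breed also lay above its group in COL1A1 and COL3A1, and 11 of 12 F1 pigs lay below the LW mean. The difference was -0.50 (SE 0.176, limma adjusted p = 0.0438), below 0 on all 5 slides by 0.05 to 0.70. Another COL1A2 probe, A_72_P095131, fell by 0.60 (SE 0.210, adjusted p = 0.0425), a call lost in 16 of the 36 refits without 1 array. The call at the brightest probe was lost in 15 of the 36 refits without 1 array, with differences of -0.50 to -0.43 and adjusted p up to 0.0919. It was also lost with the mean of the 5 probes (-0.29, adjusted p = 0.0581). With no filter on dim probes, and without slide 3, slide 4 or slide 5, no COL1A2 probe passed.

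DCN fell in F1 at A_72_P569714 (-0.43, SE 0.15, limma adjusted p = 0.0421), where F1 pigs ran from 6.77 to 8.56 (median 7.24), and the call was lost in 12 of the 36 refits. No DCN probe passed in F1 with the processed signal, with normexp background correction or in the authors' normalised table. The same held with no filter on dim probes, with 1 value per gene, and without slide 3, slide 4 or slide 5. LUM A_72_P665036 was higher in F1 (0.24, SE 0.060, adjusted p = 0.00628), with all 12 F1 pigs, from 6.66 to 7.19, above the LW mean. COL3A1 differed by -0.29 (adjusted p = 0.122) and COL1A1 by -0.37 (adjusted p = 0.210), neither of which passed.

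The number of calls between F1 and LW moved by more than 1.5 times without any 1 of 18 arrays, down to 1 or 2 calls for 14 of them and up for 4. Without F1 HS replicate 2, an animal among the 5 that lay apart, 17 of 55 probes passed between F1 and LW, against 22% of all kept probes. Without all 5, 25 passed (22 lower and 3 higher, against 32.3% of all kept probes), and for CR against LW 19 passed (16 lower and 3 higher, against 33.0%). COL1A2 between CR and LW then passed (-0.44, adjusted p = 0.0405), as did COL3A1 between F1 and LW (-0.40, adjusted p = 0.0289). Without slide 3, none of the 55 probes passed in either comparison, while 12.7% and 3.54% of all kept probes still did. An unadjusted p under 0.05 was then found at 14 and 6 of the 55, against 28.3% and 22.1% of all kept probes. F1 and CR did not separate: none of 55 probes passed, where 1.5% of all kept probes did, and none had an unadjusted p under 0.05, where 12.5% did. For COL1A2 the interval of F1 minus CR was -0.46 to 0.25, for DCN -0.24 to 0.39 and for COL5A1 -0.11 to 0.50. The comparisons of CR and of F1 with LW share the same 12 LW pigs.

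**Figure D2:**
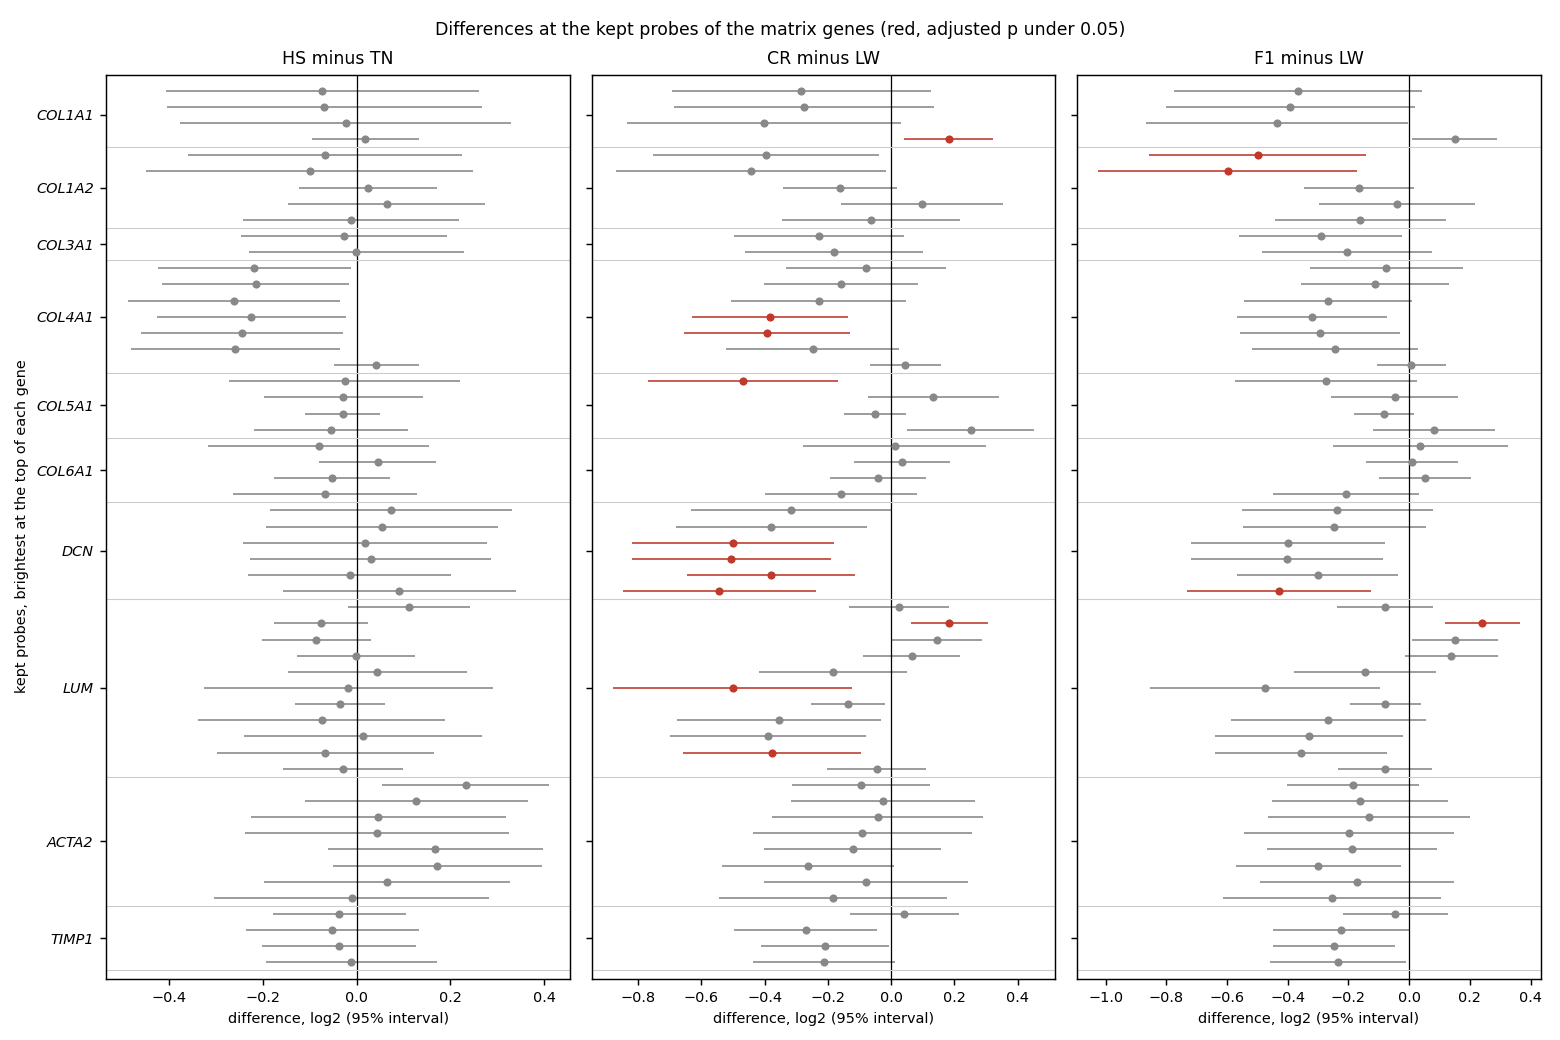
Difference on the log2 scale with its 95% interval (x axis) at each of the 55 kept probes (y axis, grouped by gene) for HS minus TN, CR minus LW and F1 minus LW; red marks an adjusted p under 0.05. There are 0, 11 and 4 red probes in the 3 panels, and the 6 DCN probes all lie below 0 in the breed panels.

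The probes of a gene were then set against each other by their deviations from the 6 group means over 36 arrays, as a description. The 6 DCN probes varied as one (r = 0.84 to 0.99), as did the 8 ACTA2 probes (0.76 to 0.99), the 4 TIMP1 probes (0.76 to 0.90) and the pair for COL3A1 (0.96). The 7 COL4A1 probes ranged from 0.48 to 0.98. The same sequence stands on different spots in 3 pairs: r was 0.98 for COL4A1, 0.90 for TIMP1 and 0.77 for LUM, and their breed differences CR minus LW lay within 0.02, 0.06 and 0.03 of each other. Both spots of a pair were read on the same array, so these values leave out the error between arrays.

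Other genes had probes that did not vary together. The COL1A1 probe A_72_P198052 had r = -0.60 with the brightest COL1A1 probe, while the overlapping one had 0.99 and the remaining one 0.92. The opposite-strand COL1A2 probe had r = -0.30 with the brightest, and the helix probe with GG pairs 0.91. The brightest COL5A1 probe had r of -0.12 to -0.11 with the others of its gene, whereas COL5A1 A_72_P077826 had r = 0.74 with COL1A1. The 3 dimmer COL6A1 probes had r of -0.02 to 0.14 with the bright one. For LUM the brightest probe, with the T and G repeat, had r of -0.37 to 0.18 with the other 10 probes. The values given for COL5A1, COL6A1 and LUM at the brightest probe are therefore those of probes that did not vary with the others of their gene. Why they differ was not tested.

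**Figure D3:**
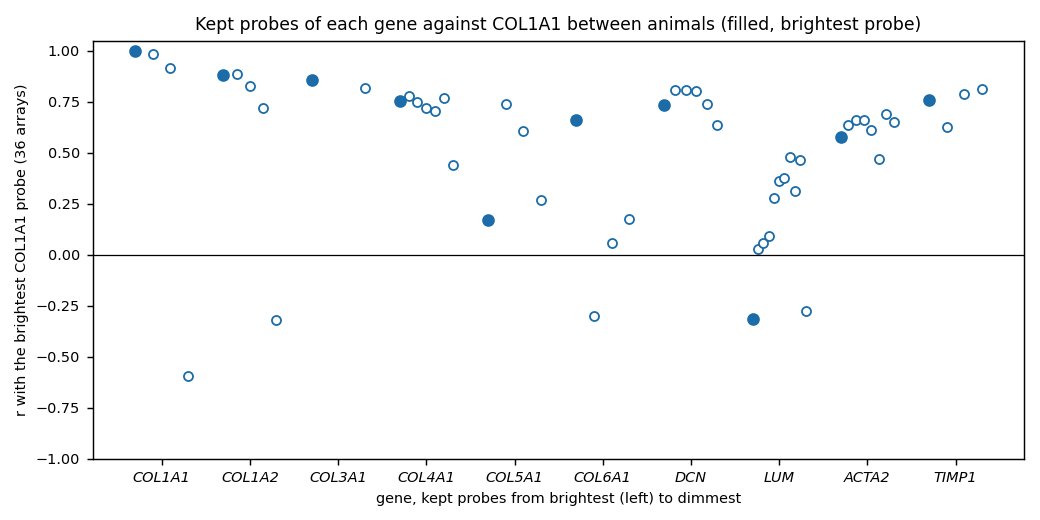
Pearson r (y axis) of each kept probe with the brightest COL1A1 probe, over deviations from group means on 36 arrays, by gene (x axis). All 6 DCN probes lie at 0.63 to 0.81, and the LUM probes lie at -0.31 to 0.48.

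Pigs of a group differed from each other along a shared axis. Of the 45 pairs among the 10 genes, 31 were correlated over 36 arrays after removal of group means (within-group permutation with 100000 resamples, adjusted p under 0.05 over 45 pairs), 28 with r above 0. The 28 are all the pairs among the genes other than COL5A1 and LUM, each at its brightest probe. Their r ran from 0.47 to 0.88, with a median of 0.67. All 28 had r above 0 within each of the 3 breeds, and with slide means removed r was 0.54 to 0.95. With Spearman's rho 28 pairs passed. No share of correlated pairs among other genes is set beside these counts. Whether they are particular to the 10 genes was not tested.

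COL1A1 and COL1A2, whose chains are wound into the same fibre, had the highest value, r = 0.88 and rho = 0.85 (permutation p = 1e-05 for both, the smallest the resamples can give; adjusted p = 4.1e-05 and 5e-05). Without the 2 arrays farthest from the COL1A1 median r was 0.86. COL1A2 with COL3A1 gave r = 0.88, COL1A1 with COL3A1 0.86 and COL3A1 with COL4A1 0.85. DCN followed COL3A1 (r = 0.79) and COL1A1 (0.73), and TIMP1 followed COL1A1 (0.76). ACTA2 was less tied to them, with r of 0.47 to 0.59 with the 7 other genes of that set. For ACTA2 and COL1A2 r was 0.48 and fell to 0.27 without 2 arrays, and with Spearman's rho (0.35) the adjusted permutation p was 0.0829. That relation was thus not found with each measure. Within LW, CR and F1 its r was 0.41, 0.42 and 0.57, and with slide means removed 0.69.

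At its brightest probe COL5A1 was in no pair that passed (r = -0.02 to 0.33). Over its 4 kept probes r with the brightest COL1A1 probe ran from 0.17, at the brightest, to 0.74. Over the 4 probes of COL6A1 it ran from -0.30 to 0.66, the last at the brightest. The set of 8 genes is thus one of brightest probes. LUM was in 3, all below 0: with COL1A2 (r = -0.40), COL3A1 (-0.39) and COL4A1 (-0.43), the last 2 lost with Spearman's rho (adjusted permutation p = 0.0730 for both). Over the other 10 LUM probes r ran from -0.18 to 0.53 with COL1A2 (7 above 0), from -0.27 to 0.49 with COL3A1 (9 above 0) and from -0.21 to 0.44 with COL4A1 (8 above 0).

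**Figure D4:**
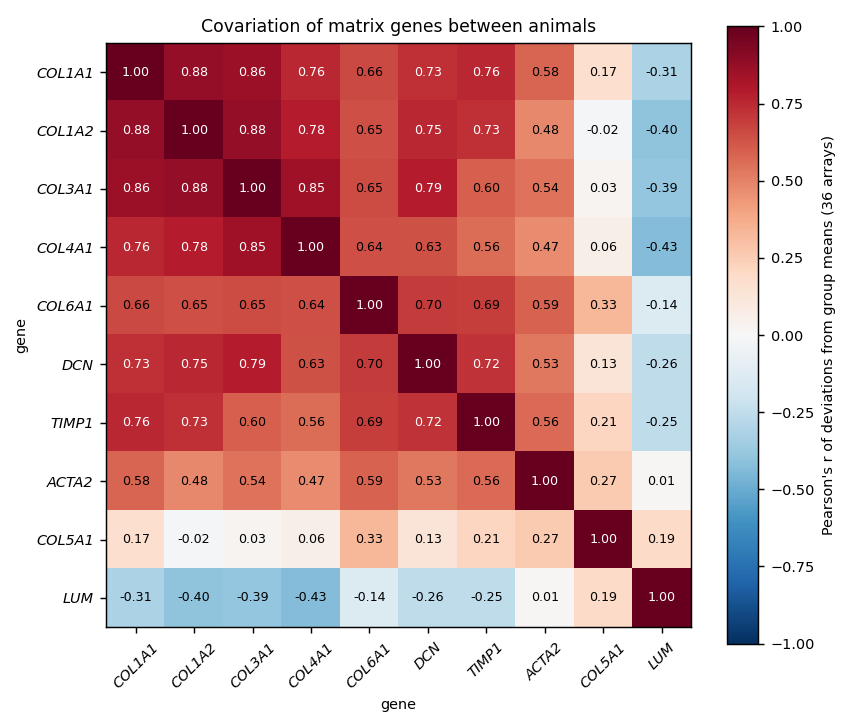
Pearson r of deviations from group means over 36 arrays for each pair of the 10 genes (both axes) at the brightest probe, with the scale at the side. At these probes the block of 8 genes holds values of 0.47 to 0.88, and COL5A1 and LUM stand outside it. Other probes of COL5A1, COL6A1 and LUM did not vary with the brightest.

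Single pigs show the size of this axis. As a mean over the 8 genes, chosen after their correlations were seen, F1 HS replicate 4 lay 0.62 below its group on the log2 scale and LW HS replicate 2 lay 0.58 below, both with all 8 genes below the group mean. CR HS replicate 4 and LW TN replicate 2 lay 0.46 and 0.45 below, also with all 8. At the other end F1 HS replicate 2 lay 0.59 above its group, F1 TN replicate 2 lay 0.43 above and CR HS replicate 6 lay 0.38 above, with none of the 8 genes below the mean. Pigs of F1 HS thus ran from 0.62 below to 0.59 above their group mean, and low and high pigs were found in both temperatures. The highest, F1 HS replicate 2, is among the 5 arrays that lay away from their breed.

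**Figure D5:**
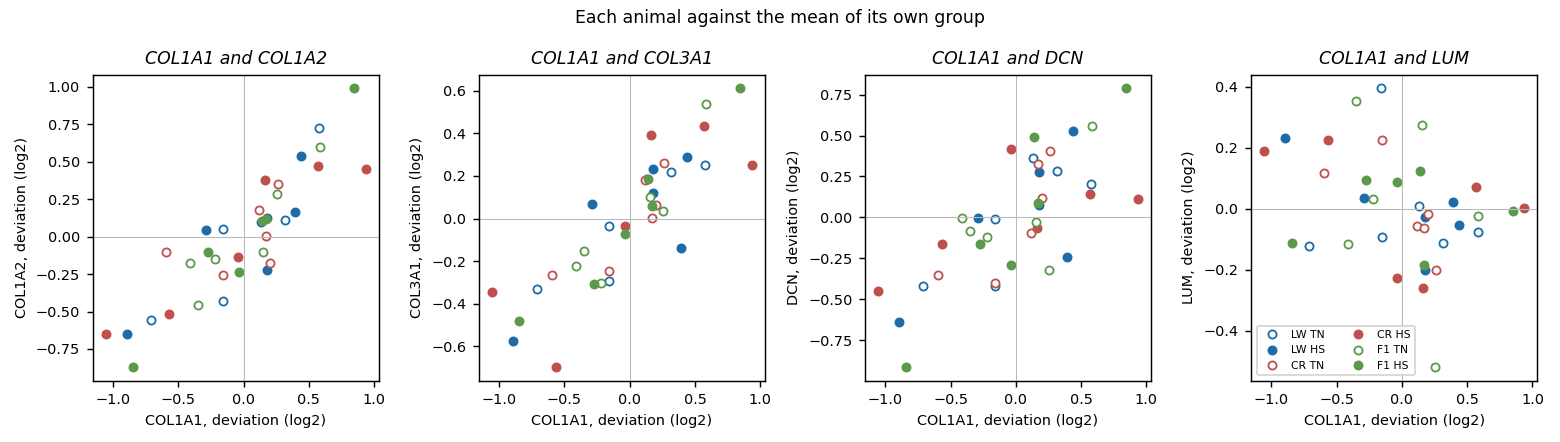
Deviation from the group mean on the log2 scale of COL1A2, COL3A1, DCN and LUM (y axes) against that of COL1A1 (x axis), 1 point a pig, 36 pigs. The points rise together for COL1A2 (r = 0.88), COL3A1 (0.86) and DCN (0.73), and for LUM r is -0.31.

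The genes outside the set with the most similar pattern over the 36 arrays were found among 11195 named genes by the same r, as a description. SPARC, a matrix protein that binds collagen, came first for COL1A1 (r = 0.89) and COL3A1 (0.91). FKBP10, a folding enzyme of collagen, came first for COL1A2 (0.88), and TIMP2, a relative of TIMP1, came first for DCN (0.84), followed by OGN (0.83), a proteoglycan of the same family. After these, DCN was closest to CCDC80 (0.815). Next for COL1A1 were COL6A3 (0.86) and ASPN (0.83), for COL1A2 ASPN (0.87) and COL14A1 (0.86), and for COL3A1 COL16A1 (0.85) and ASPN (0.84). COL4A1 was closest to CAPN2 (0.86), COL6A3 (0.85) and FSTL1 (0.84), COL6A1 to ANTXR1 (0.83), C7 (0.79) and APBB1 (0.78), and TIMP1 to EFEMP1 (0.81), COL6A3 (0.79) and FRZB (0.76).

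ACTA2 was closest to ACTA1 (0.95), then to TAGLN (0.80), a protein of smooth muscle, and ACTB (0.77). Its probe shares bases with an ACTA1 probe, as printed above. The brightest COL5A1 probe was closest to C6ORF103 (0.76), CLEC18A (0.66) and THY1 (0.63), and the brightest LUM probe to TCF15 (0.86), PRRT1 (0.86) and TMEM242 (0.84), none of them a collagen.

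Wider lists of matrix genes were read from the same fit at the brightest probe of each gene. With heat, no gene of any list passed, where 0.944% of named genes did. Between CR and LW 25.9% of named genes passed, and between F1 and LW 17.4%. Of 19 other collagen chains, 2 were higher and 2 lower in CR. COL4A2, the partner chain of COL4A1, was higher (0.40, SE 0.109, limma adjusted p = 0.00573), as was COL8A2 (0.19). COL21A1 was lower (-0.52, adjusted p = 0.000135), as was COL14A1 (-0.46), whose 7 called probes included 3 of the opposite sign. Between F1 and LW 2 chains passed, both lower.

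Of 21 genes that fold, modify and cross-link collagen, 1 was higher and 2 lower in CR. PLOD1, a lysyl hydroxylase, was lower (-0.31), as was CRTAP, of the prolyl hydroxylation complex (-0.33), while BMP1, which trims the ends of procollagen, was higher (0.21). Of 33 other matrix proteins, 1 was higher and 7 lower. MGP, an inhibitor of calcification, had the smallest p (-0.72, SE 0.100, limma adjusted p = 3.72e-06, 7 of 7 probes called), followed by FBLN5 (-0.51), an elastic fibre protein, and OGN (-0.59). NID1, which links laminin to type IV collagen, was higher (0.44). Of 22 proteases and inhibitors, 1 was higher and 5 lower: RECK (-0.47) and TIMP2 (-0.39), both inhibitors of metalloproteinases, and the metalloproteinase MMP19 (-0.39) were among the lower, and PLAUR, the urokinase receptor, was higher (0.34) with its 2 called probes of opposite sign.

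Of 25 genes of TGF-beta and PDGF signalling, the pathways that drive collagen synthesis in stellate cells, 10 were lower in CR and none higher (40.0%). TGFBI, a matrix protein induced by TGF-beta, had the smallest p (-0.83, SE 0.128, limma adjusted p = 1.7e-05), followed by TGFBR2, a TGF-beta receptor (-0.62), PDGFC, a growth factor (-0.47), and SMAD2, a signal transducer (-0.34). Between F1 and LW 6 were lower and 1 higher. For the 3 lists before it 4, 5 and 4 genes passed between F1 and LW.

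Markers of liver cell types moved with breed as well. Of 18 stellate cell markers, 7 were lower and 1 higher in CR (44.4%), and group means of the list ran from 9.26 in CR HS to 9.49 in LW HS. Of 13 endothelial markers 11 were lower and none higher, with group means of 10.05 in LW TN, 10.13 in LW HS, 9.65 in CR TN, 9.52 in CR HS, 9.78 in F1 TN and 9.75 in F1 HS. KDR, a receptor of endothelial cells, differed by -1.13 between CR and LW. Of 19 macrophage and lymphocyte markers 12 were lower and none higher, with group means of 9.73 in LW TN, 9.69 in LW HS, 9.27 in CR TN, 9.21 in CR HS, 9.38 in F1 TN and 9.38 in F1 HS. Of 14 hepatocyte markers 4 were lower and 1 higher. Smooth muscle markers gave 1 lower and 1 higher of 11, cholangiocyte markers the same of 11, and mesothelium (5 measured of 10) and erythroid markers (6 of 7) gave none. Between CR and LW 84.6% of the endothelial and 63.2% of the macrophage and lymphocyte markers were called, all lower, against 25.9% of named genes. The 55 probes of the 10 matrix genes were called less often (20%) than all kept probes (26.5%). The part of cell composition in the breed differences was not tested.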

How the data were processed

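Per the labels and the study's methods, total RNA of each liver was labelled with Cy3, hybridised to a porcine 60-base array and read with Agilent Feature Extraction 10.10.1.1. The deposited scanner files hold spot intensity on a linear scale. The deposited table, made by the authors by quantile normalisation, holds log2 values of 42051 probes. Its columns have medians of 7.656 to 7.659. Set against the scanner values, each probe proved to be centred (probe medians of 7.519 to 7.847), and deviations per array correlated at 0.791 to 0.993, so its scale and direction were settled. It served as an alternative, with 53 of the 55 probes.

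The median signal of 36 arrays was quantile normalised without background subtraction and taken to log2, 107 spots flagged as non-uniform were left out, and repeated spots were replaced by their mean. The 44796 probes (74.3%) that no fewer than 6 arrays showed well above background entered limma (version 3.58.1, under R 4.3.3) with breed and temperature as factors, and p-values were adjusted by Benjamini-Hochberg over all of them, with a threshold of 0.05. Pen, slaughter day and parents, which the study's model held, are not in the labels. The interaction was tested in a model of the 6 group means. Correlations used deviations from group means and two-sided permutation within groups. The fit was tested on simulated data. Probes were named from the files and RefSeq tables; COL6A1 is named only. Values in full were given for genes called at the brightest probe and for COL1A1, COL3A1, DCN and ACTA2, and of each list up to 4 genes with the smallest p were named where they passed; other probes printed were chosen after their values were seen. The genes, lists and tests were chosen with earlier results of these data known. Precision is limited by the number of arrays.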

Additional observations from a re-analysis of the deposited data

Results flagged for a closer look

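Within the 6 groups, single pigs stood apart at the brightest probe in 4 of 60 sets of 6 values (10 genes in 6 groups), where chance gives about 3; the measure is the gap to the nearest pig as a share of the group's range. DCN in F1 TN replicate 2 was highest, at 12.05 on the log2 scale with the next pig at 11.49 (share 0.637). LUM in LW TN replicate 6, one of the 5 arrays that lay away from their breed, was highest at 10 with the next at 9.62 (0.746). ACTA2 in LW TN replicate 2 was lowest, at 12.67 with the next at 12.92 (0.810), and this pig was low in all of the 8 genes that varied together. ACTA2 in F1 TN replicate 5 was highest, at 13.27 with the next at 12.73 (0.672).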

How the results depend on the processing

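Over 53 other settings, 1974 of 2090 values of the 10 genes kept their direction and their side of the threshold, and 88 that were not called changed sign. Most of these results were not called in the main fit, so keeping their side mostly meant staying uncalled. Among the called ones, COL5A1 between CR and LW passed at its brightest probe in 49 of 52 settings, 36 of which left out 1 array. It did not pass with 1 value per gene (-0.03, limma adjusted p = 0.714), and its brightest probe did not vary with its other probes. COL1A2 between F1 and LW passed in 32 of 52, among them 21 of the 36 that left out 1 array. The number of probes called between CR and LW, 11 of 55, was 17 with array weights (32.6% of all features passed), 1 of 10 with 1 value per gene (25.4%; DCN, -0.44, adjusted p = 0.0236), 19 without the 5 arrays away from their breed (33.0%), 0 without slide 3 (12.7%) and 6 without slide 4 (17.6%). Between F1 and LW, 4 of 55 became 1 with no filter on dim probes (12.2%), 15 with array weights (26.5%), 0 of 10 with 1 value per gene (16.8%), 25 without the 5 arrays (32.3%), 9 without slide 1 (20.3%), 0 without slide 3 (3.54%) and 1 without slide 4 (10.8%) or slide 5 (13.8%). The cause was not tested; leaving out a slide also takes 4 or 8 arrays from the fit. Leaving out single arrays gave 7 to 16 calls for CR minus LW, with 7 without LW HS replicate 1, and 1 to 17 for F1 minus LW. The latter was 17 without F1 HS replicate 2, 7 without F1 TN replicate 2, F1 TN replicate 3 or LW TN replicate 6, and 1 or 2 without any of 14 other pigs of LW or F1. It gave 0 to 0 calls for HS minus TN, F1 minus CR and the interaction. No paired analysis was possible because the replicate numbers follow accession order and pair no animals.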

Other observations

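Within groups, the genes also followed the mean levels of the wider lists. Over 130 relations of the 10 genes with 13 lists, computed after the data had been seen, 80 had an adjusted permutation p under 0.05 for Pearson's r over 36 arrays. No share for other genes is set beside this count. COL1A2 and COL3A1 each had r = 0.91 with the other matrix proteins (rho = 0.89 and 0.92, and 0.88 and 0.91 without the 2 farthest arrays). With stellate cell markers r was 0.76 for COL4A1, 0.70 for COL3A1, 0.68 for COL1A2, 0.64 for DCN and 0.60 for COL1A1. Other lists gave values of like size. For the mesothelium and capsule list r was 0.74 for COL1A1 and COL3A1 and 0.71 for COL1A2. That list had 5 of 10 genes measured and was drawn up with KRT8 and KRT18 in it. Whether it marks mesothelium alone was not tested. With cholangiocyte markers r was 0.59 to 0.61 for these 3 collagen genes, and with endothelial markers 0.67 for DCN. No difference between lists was tested. ACTA2, the actin of activated stellate cells and smooth muscle, had r = 0.32 with stellate cell markers (adjusted permutation p = 0.0953). Its r was 0.78 with smooth muscle markers and 0.71 with the mesothelium and capsule list. With hepatocyte markers r was below 0 for all 10 genes and passed for COL6A1 (r = -0.47, adjusted permutation p = 0.0144; rho = -0.45, adjusted permutation p = 0.0235). The other 9 genes, from -0.29 for COL4A1 to -0.10 for COL5A1, did not pass. All of these relations share the arrays and the piece of tissue sampled.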
